A study of Mus musculus with 4 samples.

Results

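The genes described here are the organic ion, drug and bile salt transporters of the mouse kidney. They were chosen by symbol from 6 families, namely Slc22a, Slco, Slc47a, Slc10a, Abcb and Abcc, with a mean normalized read count of at least 10 over all libraries. That rule gave 60 genes of the 27179 in the table. A further 11 symbols matched but had lower means. The data were 4 libraries of mRNA sequencing of kidney medulla taken at postnatal day 14. Labelled as Actr3 knockouts were 2 mice of genotype Actr3-fl/fl*Cdh16-Cre, and labelled as wild type controls were 2 mice, each mouse giving 1 library. All were of a mixed C57BL/6 strain. In the knockout, Actr3, which encodes the Arp3 subunit of the actin-nucleating Arp2/3 complex, is floxed, and Cre runs from the promoter of the tubule cadherin gene Cdh16. Cells outside that epithelium would keep the gene, and whether the controls carried floxed alleles or Cre is not given in the sources used here.

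Counts of Actr3 itself, normalized by library, were 12587 and 12480 in KO-labelled, against 8065 and 7275 in WT-labelled libraries, so the targeted gene was higher in the libraries labelled as knockouts (log2 difference 0.71, SE 0.082, limma adjusted p = 0.000494). A count over the whole gene cannot show whether an exon was deleted. The groups are therefore called KO-labelled and WT-labelled, and every direction below rests on those labels. Recovered reads per library were 36482238 and 40784436 in KO-labelled and 40453242 and 40342530 in WT-labelled libraries. Xist was high in every library, at 34400 and 37573 in KO-labelled and 36931 and 27873 in WT-labelled libraries, and the Y-linked genes Ddx3y, Eif2s3y, Kdm5d and Uty reached at most 15.9 in any library. In a bulk sample, fewer cells of a type and less RNA per cell cannot be told apart.

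Transporters of these families move charged and amphipathic molecules across epithelia. In the proximal tubule, organic anion and cation carriers of the Slc22a family take up drugs, urate and metabolites from blood or filtrate, the Slc47a exporters and the ABC pumps pass them on to the urine, and the Slco carriers handle hormones, prostaglandins and conjugated steroids. The Slc10a family includes the sodium-coupled bile salt carriers of liver and ileum, and the Abcb and Abcc families also hold mitochondrial and lysosomal transporters and subunits of potassium channels. Proximal tubule lies mainly in the cortex and the outermost medulla.

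In KO-labelled libraries 11 of the 60 genes rose and 32 fell, while 17 did not pass the threshold (limma on log2(value + 1), Benjamini-Hochberg adjusted p under 0.05 over 16253 genes). The shares were 18.3% higher and 53.3% lower. Among all genes tested 51.2% were called, 26.3% higher and 24.9% lower. The median log2 difference, KO-labelled minus WT-labelled, was -0.63 over the transporters and 0.003 over all genes tested. Differences of at least 1 on the log2 scale were called in 8 transporters upward and 17 downward, against 10.7% and 9.45% of all genes. The KO-labelled and WT-labelled values did not overlap in 53 of 60 transporters, 14 with both KO-labelled values above and 39 with both below. Of all genes 78.5% did not overlap, 39.8% with the KO-labelled values above and 38.7% below. On recovered reads, edgeR called 10 transporters higher and 32 lower, against 25.8% and 25.3% of all genes, and DESeq2 called 10 higher and 28 lower, against 24.6% and 23.5%. The number called higher was 7 without KO replicate 1, and the number called lower was 20 without WT replicate 1. A gene of low level passes the mean filter through the group where it is high, so these counts only describe the list. Of the called genes, Slco5a1, Slc10a2 and Slc22a3 had WT-labelled means below 10. Slco1c1, Abcc8 and some Slc22a genes named below had KO-labelled means below 10.

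**Figure D1:**
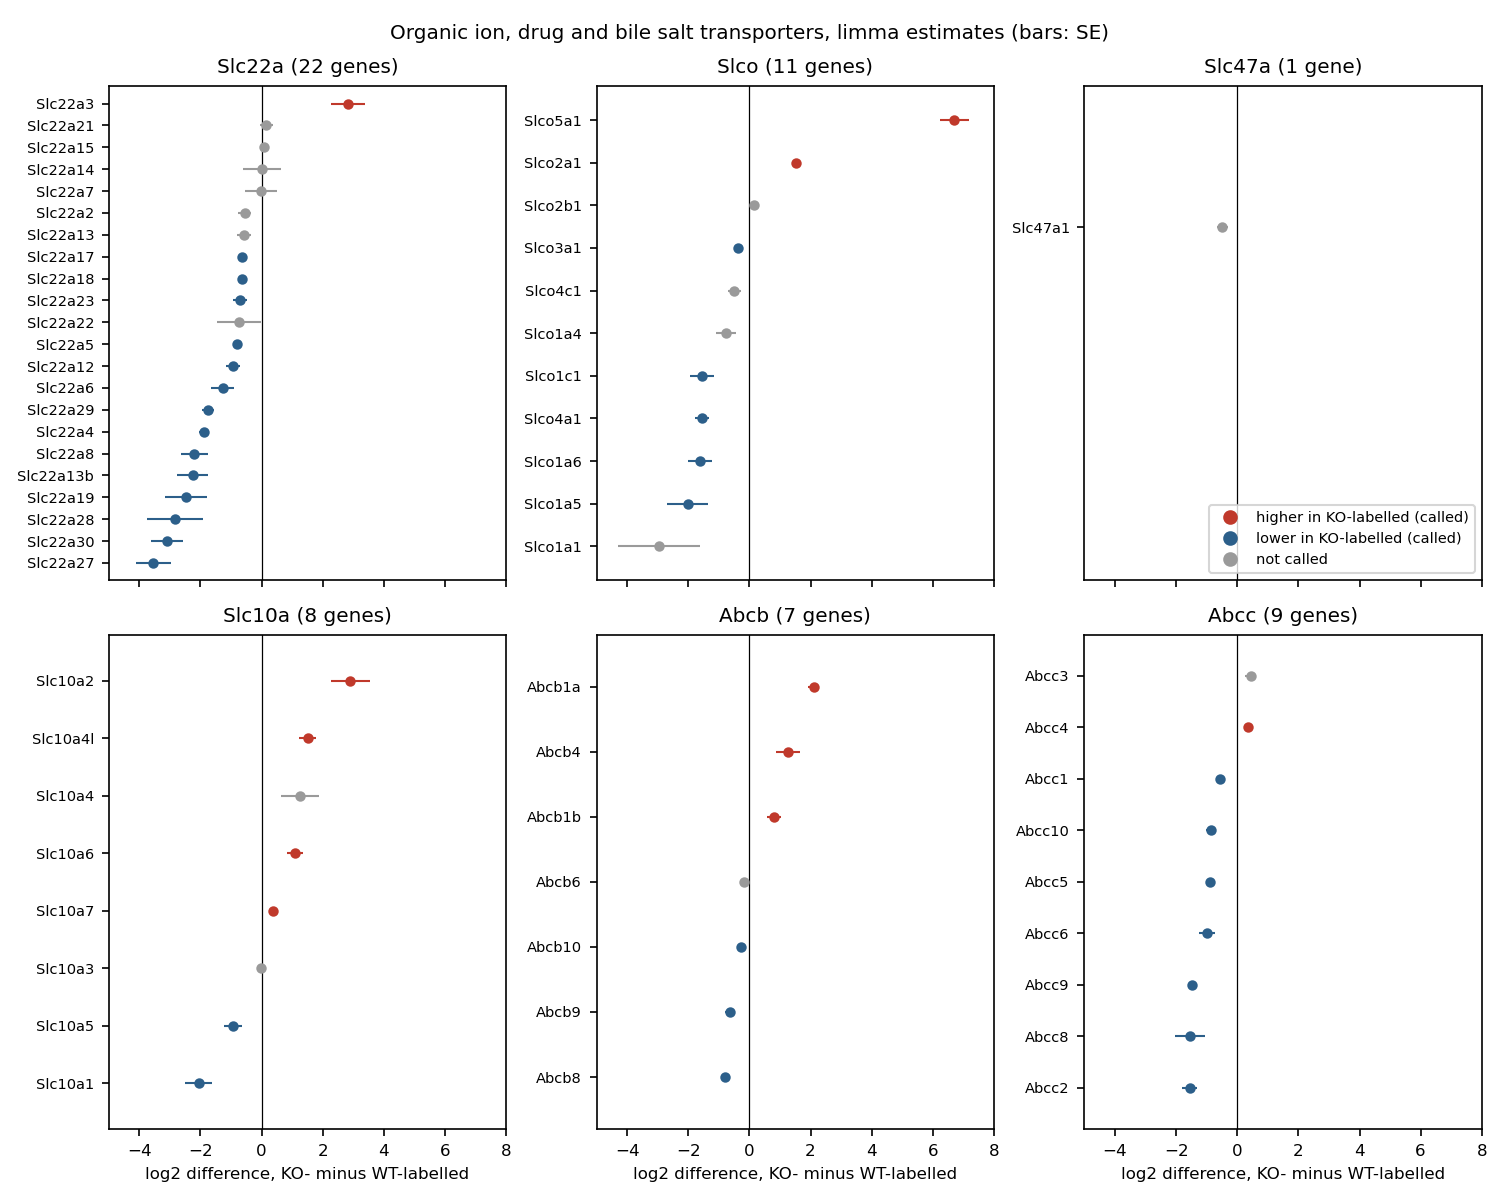
Log2 difference of 58 of the 60 transporter genes, KO-labelled minus WT-labelled (horizontal axis), by family, with bars for the SE of the limma fit and colour for the call. Most Slc22a and Abcc genes lie left of 0, Slco5a1 lies farthest right at 6.71, and Slc22a27 farthest left at -3.55.

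By family, the Slc22a genes gave 1 higher and 14 lower of 23, with a median log2 difference of -0.74. The Slco genes gave 2 higher and 5 lower of 11, with a median of -0.76. The 9 Abcc genes gave 1 higher and 7 lower, with a median of -0.89, and the 8 Abcb genes 3 higher and 4 lower, with a median of -0.22. The Slc10a genes gave 4 higher and 2 lower of 8, with a median of 0.74. That median was 0.46 without WT replicate 2 and 0.19 over 6 genes when the mean had to reach 50. None of the Slc10a genes was called lower without WT replicate 1 or with no variance trend, and 2 were called higher without KO replicate 2. The Slco median was -0.47 without KO replicate 1 and -0.43 when the mean had to reach 50. Of the Abcb genes, 1 was called higher without WT replicate 1 or KO replicate 1, and 2 were called lower without WT replicate 2 or KO replicate 2. With a robust variance trend 8 Slc22a genes were called lower, and 7 were without any trend. Slc47a1 was the only Slc47a gene above the mean of 10 and did not pass the threshold.

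Organic anion carriers of the Slc22a family were the role with the lowest median of the 10 roles. Of 12 such genes, 9 were lower, none was higher and 3 were not called, with a median log2 difference of -1.98. Slc22a13b, Slc22a28 and Slc22a30 had KO-labelled means below 10 and passed the mean filter through the WT-labelled libraries. Slc22a13b is annotated as a transcribed pseudogene and is counted among the carriers here. When the mean had to reach 50, 6 of 8 organic anion carriers were lower, with a median of -1.52. The best known are Slc22a6 and Slc22a8, the basolateral carriers that bring para-aminohippurate, diuretics and antibiotics into proximal tubule cells in exchange for dicarboxylates. Slc22a8 (Entrez 19879, chr19:8591254-8611835) had normalized counts of 179 and 401 in KO-labelled, against 864 and 1763 in WT-labelled libraries. All KO-labelled values lay below all WT-labelled values, though the WT-labelled libraries themselves differed widely. The group means were 290 ± 157 for KO-labelled and 1314 ± 636 for WT-labelled (SD, n = 2 each), a 4.53-fold fall (log2 difference -2.20, SE 0.43, limma adjusted p = 0.0052). With a robust variance trend it missed the threshold (limma adjusted p = 0.0629). Slc22a6 (Entrez 18399, chr19:8617996-8628299) had 275 and 524 in KO-labelled, against 648 and 1296 in WT-labelled libraries. Its groups were separate but close, with the higher KO-labelled value not far below the lower WT-labelled one (log2 difference -1.27, SE 0.38, limma adjusted p = 0.0292). DESeq2 did not call Slc22a6 (adjusted p = 0.0933), nor did limma with a robust variance trend (adjusted p = 0.126) or no trend (0.113). Its log2 difference was -0.77 without WT replicate 2 and -0.81 without KO replicate 1.

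Slc22a19, an apical organic anion exchanger of the mouse proximal tubule, and a run of rodent paralogs beside it fell as well. Slc22a19 (Entrez 207151, chr19:7673075-7711310) had normalized counts of 61.1 and 244 in KO-labelled, against 1148 and 400 in WT-labelled libraries. WT replicate 1 was much the highest library, and without it the call was lost (limma adjusted p = 0.134, against 0.0217 with it, log2 difference -2.46, SE 0.69). Slc22a27 (Entrez 171405, chr19:7864388-7966517) had 9.65 and 38.6 in KO-labelled, against 269 and 213 in WT-labelled libraries, the largest fall among the transporters at 9.98-fold (log2 difference -3.55, SE 0.57, limma adjusted p = 0.00218). Slc22a29 (Entrez 236293, chr19:8160168-8253375) had 246 and 371 in KO-labelled, against 1080 and 977 in WT-labelled libraries, with tight WT-labelled values well above both KO-labelled ones (log2 difference -1.76, SE 0.20, limma adjusted p = 0.000476). Slc22a12, the apical urate carrier, had 878 and 1522 in KO-labelled, against 2192 and 2192 in WT-labelled libraries (log2 difference -0.92, SE 0.23, limma adjusted p = 0.0136). Its WT-labelled values were all but equal, and its call was lost without either of them (limma adjusted p = 0.0658 without WT replicate 1 and 0.063 without WT replicate 2). At low level, Slc22a30 had 5.36 and 13.2 in KO-labelled, against 111 and 57.7 in WT-labelled libraries. The pseudogene Slc22a13b had 5.36 and 11.3 in KO-labelled, against 57.1 and 29.8 in WT-labelled libraries. Slc22a28 had 1.07 and 14.1 in KO-labelled, against 54.2 and 27.8 in WT-labelled libraries. All of them were called lower, Slc22a30 with every library left out in turn, Slc22a13b not without WT replicate 1 (limma adjusted p = 0.0682) and Slc22a28 not without KO replicate 1 (0.0672), WT replicate 1 (0.171) or WT replicate 2 (0.0747). The genes not called were Slc22a7 with 105 and 234 in KO-labelled, against 255 and 98.4 in WT-labelled libraries, the nicotinate and urate carrier Slc22a13 with 424 and 664 in KO-labelled, against 923 and 676 in WT-labelled libraries, and Slc22a22, a prostaglandin carrier in the mouse, with 5.36 and 25.4 in KO-labelled, against 28.6 and 14.9 in WT-labelled libraries. Without KO replicate 2, Slc22a13 (limma adjusted p = 0.00996) and Slc22a22 (0.0464) were called lower.

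KO replicate 1 had the lower value of the KO-labelled libraries in 12 of 12 organic anion carriers, by a median of 1.15 on the log2 scale. Between the WT-labelled libraries the median difference was 0.67, replicate 1 being higher in 9 of 12. The count of carriers called lower was 11 without KO replicate 2, 7 without KO replicate 1, 6 without WT replicate 2 and 5 without WT replicate 1. It was 4 with a robust variance trend and 5 with no trend. Of 25 proximal tubule marker genes, 17 were lower and 1 higher, with a median of -1.20, and their summed normalized counts were 112240 and 167673 in KO-labelled, against 292662 and 268522 in WT-labelled libraries. The median marker was lower in KO replicate 1 than in KO replicate 2, by a log2 difference of -0.61. Between the WT-labelled libraries the markers ran opposite to the carriers, with a median of -0.41 for replicate 1 minus replicate 2. The higher sum in WT replicate 1 came with 1 gene, Kap, which had 25130 and 42716 in KO-labelled, against 118424 and 58779 in WT-labelled libraries. Their part in the result was not tested. Of these markers Slc5a2 fell farthest, with 57.9 and 199 in KO-labelled, against 753 and 2055 in WT-labelled libraries (log2 difference -3.52). Lrp2, which encodes the endocytic receptor megalin, had 4684 and 8073 in KO-labelled, against 11888 and 11442 in WT-labelled libraries (log2 difference -0.92). Slc7a8 was the marker called higher (log2 difference 0.60). By contrast, the largest difference between replicates over the 17 ABC transporter genes was 1.08 on the log2 scale.

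**Figure D2:**
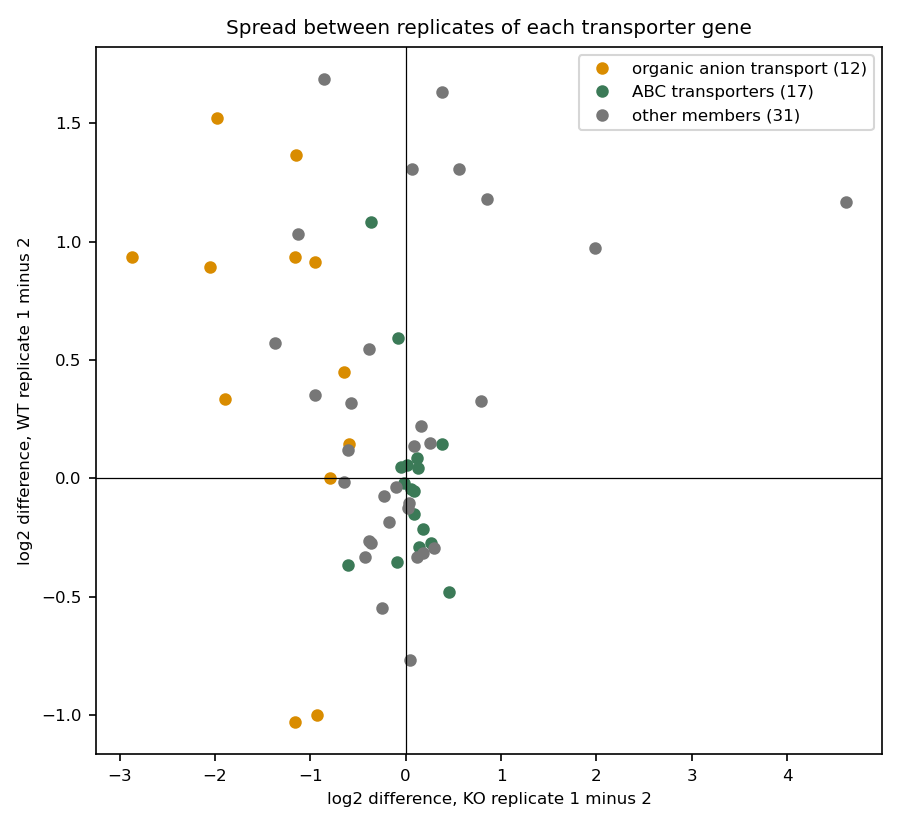
Log2 difference between the replicates of each transporter gene, KO replicate 1 minus 2 (horizontal axis) and WT replicate 1 minus 2 (vertical axis), 1 point per gene. All 12 organic anion carriers lie left of 0, while the 17 ABC transporter genes lie within 1.08 of 0 on both axes.

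Of the 9 organic anion carriers that fell, 7 lie in a single block on chromosome 19 between positions 7673075 and 8628299 (GRCm38), in the order Slc22a19, Slc22a27, Slc22a28, Slc22a29, Slc22a30, Slc22a8 and Slc22a6. Slc22a26, which lies between the first pair, had a mean below 10. Several of these genes are near copies, which bears on how reads were assigned. Over their coding sequence Slc22a28 and Slc22a30 were 98.8% identical, with 20 of 1656 bases differing, and Slc22a27 and Slc22a29 were 97.3% identical, with 45 of 1653 differing. The stretches of 60 coding bases with the most differences are shown to make this visible, from GENCODE transcripts on GRCm38, minus strand, differing bases in capitals. They cover coding bases 618 to 677 of Slc22a28 (chr19:8116890-8117038) and Slc22a30 (chr19:8386545-8386693), where an intron lies within the interval, and bases 685 to 744 of Slc22a27 (chr19:7909779-7909838) and Slc22a29 (chr19:8207092-8207151).
Slc22a28: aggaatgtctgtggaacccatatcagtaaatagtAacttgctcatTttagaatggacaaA
Slc22a30: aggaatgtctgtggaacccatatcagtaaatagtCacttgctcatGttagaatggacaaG
Slc22a27: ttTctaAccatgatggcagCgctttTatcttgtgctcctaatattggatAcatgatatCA
Slc22a29: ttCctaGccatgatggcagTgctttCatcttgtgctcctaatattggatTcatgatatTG
The first pair differed at 3 and the second at 7 of these bases. Of all 50-base windows in their exons, 53.9% in Slc22a28, 34.2% in Slc22a30, 29.9% in Slc22a27 and 28.7% in Slc22a29 also occurred in another gene, so the separate values of these neighbours are uncertain. More than 10% of windows were shared in 12 of the 59 transporter genes with an annotated exon length. Among them were Abcb6 and Slc22a13, each with a larger shared part than the 34.2% of Slc22a30. Neither shared windows with another of the 59, so the matches lay in genes outside that list. The values of Abcb6 and Slc22a13 are therefore uncertain as well. No gene and its closest relative by transcript, each the other's best match, were called in opposite directions.

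Carriers of carnitine and zwitterions gave 2 lower and none higher of 4, and the organic cation carriers 1 higher and none lower of 3. Slc22a4 (Entrez 30805, chr11:53983115-54030040), the ergothioneine carrier, had normalized counts of 228 and 258 in KO-labelled, against 849 and 964 in WT-labelled libraries. The groups were far apart relative to their spread, with means of 243 ± 21.0 for KO-labelled and 907 ± 81.4 for WT-labelled, both SD with n = 2 (log2 difference -1.89, SE 0.14, limma adjusted p = 8.12e-05). Its neighbour Slc22a5, the main carnitine carrier, had 1508 and 1764 in KO-labelled, against 2764 and 2913 in WT-labelled libraries (log2 difference -0.80, SE 0.10, limma adjusted p = 0.000757). Slc22a21, which lies between them on chromosome 11, had 144 and 132 in KO-labelled, against 110 and 139 in WT-labelled libraries. Its groups overlapped (log2 difference 0.15, SE 0.22, limma adjusted p = 0.589). It shares 22.0% of its 50-base windows with other genes, and 21.7% with Slc22a5. Slc22a5 shares 26.1% of its windows with Slc22a21, so the separate values of this pair are uncertain. Slc22a15 had 700 and 627 in KO-labelled, against 677 and 579 in WT-labelled libraries, also with overlapping groups. On chromosome 17, Slc22a2, a basolateral uptake carrier of the proximal tubule, had 490 and 728 in KO-labelled, against 982 and 788 in WT-labelled libraries, with separate groups. It was not called by limma with all libraries, and was called lower without KO replicate 2 (limma adjusted p = 0.00704) and by DESeq2 (adjusted p = 0.0378). Slc22a3, a more widely expressed cation carrier in the same block, had 31.1 and 82.0 in KO-labelled, against 7.88 and 4.97 in WT-labelled libraries. That is a rise at low level, with 116 recovered reads in KO-labelled and 13 in WT-labelled libraries (log2 difference 2.83, SE 0.55, limma adjusted p = 0.00503). The exporter that pairs with cation uptake, Slc47a1 (Entrez 67473, chr11:61343400-61378842), had 1548 and 2348 in KO-labelled, against 2800 and 2579 in WT-labelled libraries. KO replicate 2 came close to the WT-labelled values, and the gene was not called (log2 difference -0.50, SE 0.18, limma adjusted p = 0.0564). It was called lower without that library (limma adjusted p = 0.00138), with a replicate block (limma adjusted p = 0.0381) and by DESeq2 (adjusted p = 0.0310).

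**Figure D3:**
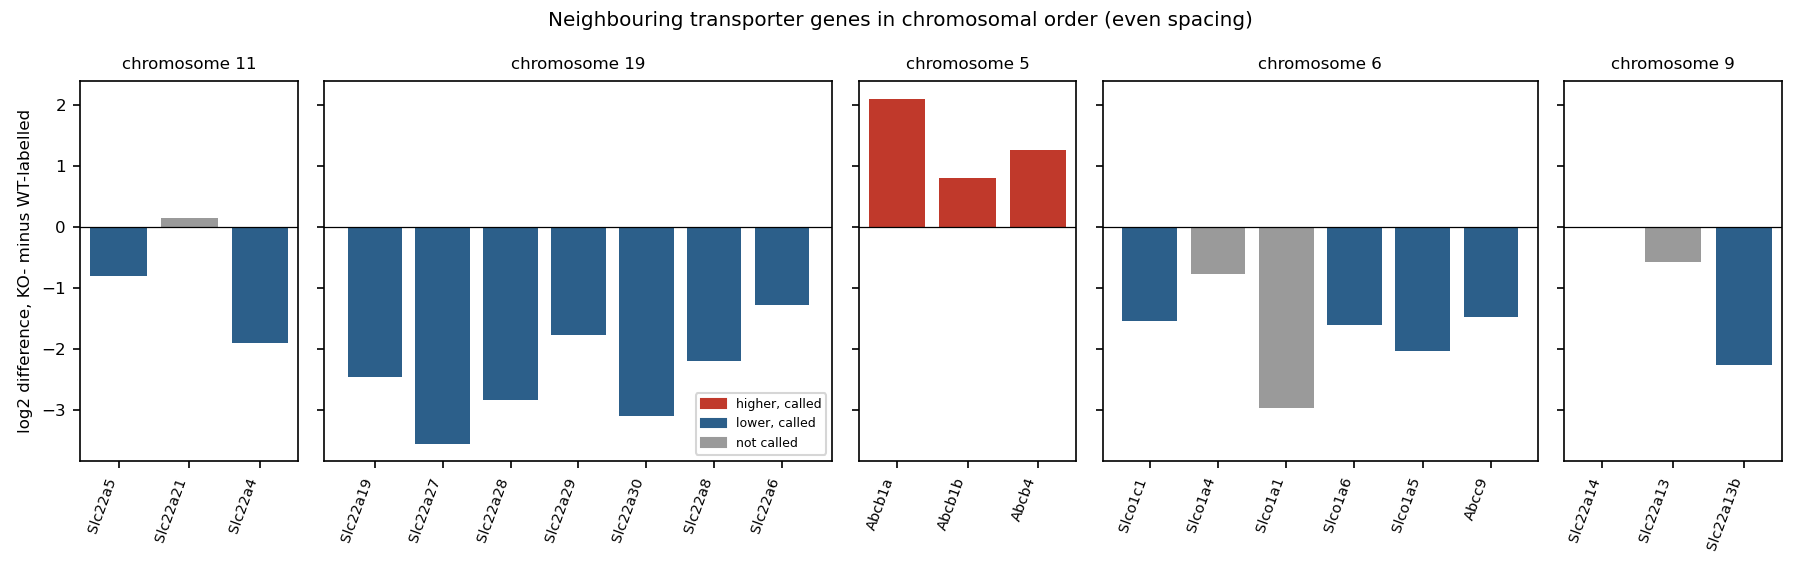
Log2 difference, KO-labelled minus WT-labelled (vertical axis), of neighbouring transporter genes in chromosomal order with even spacing, 1 panel for each of 5 blocks of at least 3 genes with a mean of 10 or more. All 7 genes of the chromosome 19 block were lower, all 3 of the chromosome 5 block were higher, 4 of 6 of the chromosome 6 block were lower, and the blocks on chromosomes 11 and 9 held called and uncalled genes.

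Among the 11 Slco genes, which encode the organic anion transporting polypeptides, the extremes ran in opposite directions. Slco5a1 (Entrez 240726, chr1:12866549-12992796), whose substrates are not settled, had normalized counts of 335 and 318 in KO-labelled, against 3.94 and 0.994 in WT-labelled libraries. The KO-labelled group held 650 recovered reads and the WT-labelled group 5, where the gene was all but absent, a ratio of 132 with an exact 95% interval of 56.4 to 409 that covers counting error only (log2 difference 6.71, SE 0.48, limma adjusted p = 6.5e-05). Slco2a1 (Entrez 24059, chr9:103007061-103096002), the prostaglandin uptake carrier, had 3183 and 2658 in KO-labelled, against 1060 and 956 in WT-labelled libraries. The group means of 2921 ± 372 for KO-labelled and 1008 ± 73.2 for WT-labelled (SD, n = 2 each) differed 2.90-fold (log2 difference 1.53, SE 0.12, limma adjusted p = 8.22e-05). Both rises held with every library left out in turn.

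The Slco genes that fell were Slco4a1, Slco1a6, Slco1a5, Slco1c1 and Slco3a1. Slco4a1 (Entrez 108115, chr2:180456226-180474853), a carrier of thyroid hormones and other anions, had 1695 and 979 in KO-labelled, against 4228 and 3372 in WT-labelled libraries. The groups lay farther apart than either pair of replicates (log2 difference -1.55, SE 0.24, limma adjusted p = 0.00193). Slco1a6 (Entrez 28254, chr6:142085761-142186177), a rodent carrier expressed in mouse kidney, had 3048 and 1688 in KO-labelled, against 10416 and 4593 in WT-labelled libraries. WT replicate 1 was far above the other WT-labelled library, and without it the gene was not called (limma adjusted p = 0.0579, against 0.0135 with it, log2 difference -1.61). Slco1a5 (Entrez 108096, chr6:142234227-142322981) had 36.5 and 8.48 in KO-labelled, against 106 and 53.7 in WT-labelled libraries (log2 difference -2.02, SE 0.66, limma adjusted p = 0.0392). It was not called without WT replicate 1 (limma adjusted p = 0.201), WT replicate 2 (0.0599) or KO replicate 2 (0.104). Slco3a1 (Entrez 108116, chr7:74275418-74554780), the member of its family with the highest mean count, had 5469 and 4814 in KO-labelled, against 5978 and 7442 in WT-labelled libraries (log2 difference -0.38, SE 0.12, limma adjusted p = 0.0361), lost without WT replicate 2 (limma adjusted p = 0.159) or KO replicate 2 (0.152). Slco1c1, the thyroxine carrier of brain endothelium, had 9.65 and 9.42 in KO-labelled, against 28.6 and 30.8 in WT-labelled libraries, called lower but not without WT replicate 1 (limma adjusted p = 0.0503) or WT replicate 2 (0.0618). The count of Slco genes called lower was 2 without WT replicate 1 and 3 without WT replicate 2. Slco1a1 was listed at 23.6 and 0 in KO-labelled, against 57.1 and 24.8 in WT-labelled libraries, and was not called (limma adjusted p = 0.106, but 0.000567 without KO replicate 1 and 0.0157 with a replicate block). Slco1a4 with 27.9 and 44.3 in KO-labelled, against 60.1 and 60.6 in WT-labelled libraries, Slco4c1 with 278 and 362 in KO-labelled, against 540 and 369 in WT-labelled libraries, and Slco2b1 with 1387 and 1486 in KO-labelled, against 1282 and 1315 in WT-labelled libraries were not called either. Slco1a4 was called without KO replicate 2 (limma adjusted p = 0.0493) and Slco4c1 without WT replicate 2 (0.0419).

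**Figure D4:**
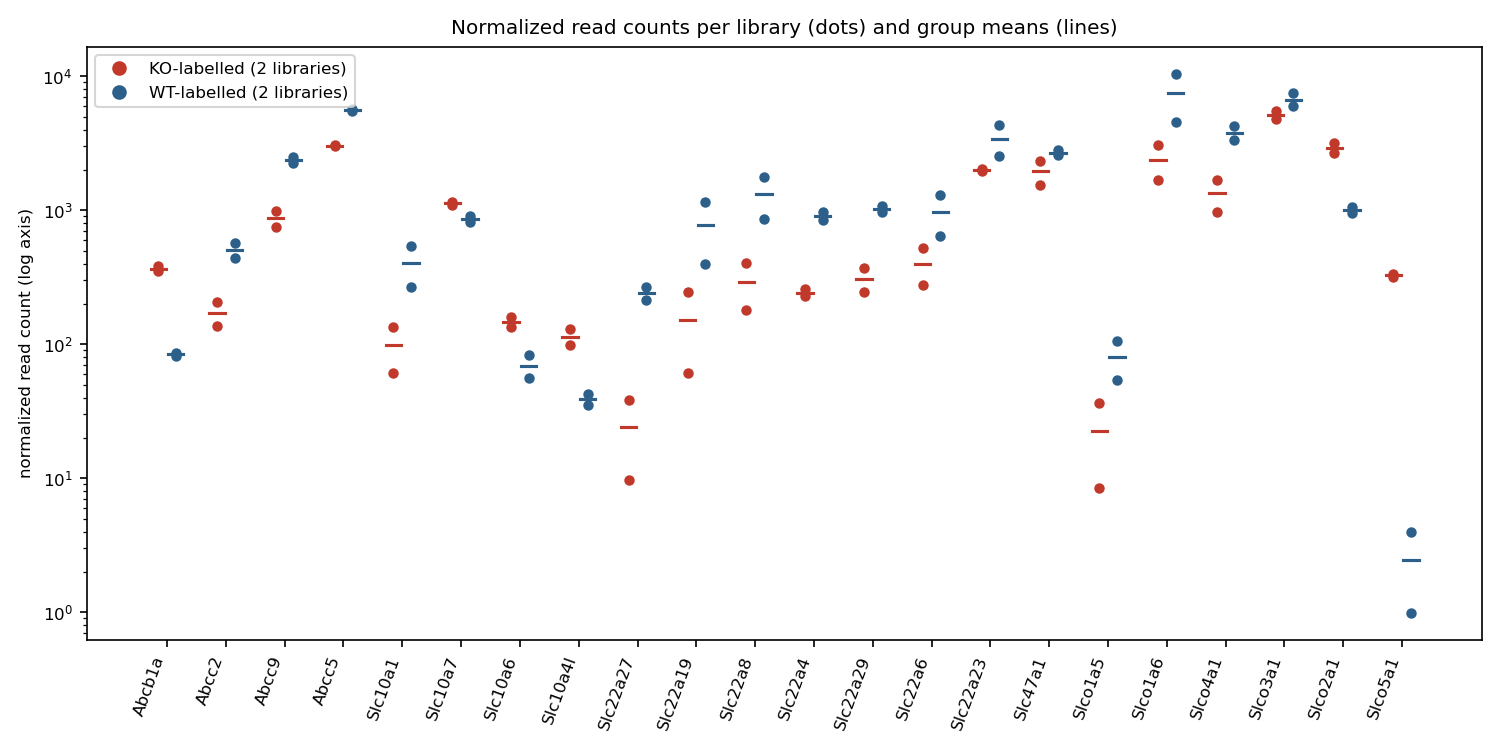
Normalized read count on a log axis in each library (dots) with group means (lines) for 22 transporter genes, KO-labelled left of WT-labelled for each gene. Most of these genes were chosen for a called difference, so the separate groups seen for each follow largely from that choice. Of all genes tested, 78.5% had separate groups. The gap is widest for Slco5a1.

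The sodium-coupled carriers of bile salts and steroid sulfates split. Slc10a1 (Entrez 20493, chr12:80953185-80968705), the hepatocyte uptake carrier for conjugated bile salts, had normalized counts of 61.1 and 135 in KO-labelled, against 545 and 265 in WT-labelled libraries. Both KO-labelled values lay below both WT-labelled values (log2 difference -2.05, SE 0.45, limma adjusted p = 0.00799), though not past the threshold without WT replicate 1 (limma adjusted p = 0.0557). Slc10a2, the apical bile salt carrier of ileum and kidney tubule, had 38.6 and 70.7 in KO-labelled, against 11.8 and 2.98 in WT-labelled libraries, a rise at low level, with 111 recovered reads in the KO-labelled group and 15 in the WT-labelled group (log2 difference 2.90, SE 0.63, limma adjusted p = 0.00821). Slc10a6 (Entrez 75750, chr5:103605711-103629403), which carries sulfated steroids, had 134 and 159 in KO-labelled, against 56.1 and 82.5 in WT-labelled libraries (log2 difference 1.09, SE 0.27, limma adjusted p = 0.0134), and was not called without WT replicate 1 (limma adjusted p = 0.0656) or KO replicate 2 (0.058). Slc51a, 1 chain of the basolateral bile salt and steroid exporter and no member of the families above, had 32.2 and 66.9 in KO-labelled, against 164 and 114 in WT-labelled libraries (log2 difference -1.54, SE 0.39, limma adjusted p = 0.0146), and was not called without WT replicate 1 (limma adjusted p = 0.0949).

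Of the 9 genes with no settled substrate, 2 were higher, 4 were lower and 3 were not called. Slc10a4l (Entrez 545758, chr5:72581638-72587550), annotated as a transcribed pseudogene, had normalized counts of 98.7 and 129 in KO-labelled, against 35.5 and 42.7 in WT-labelled libraries (log2 difference 1.51, SE 0.28, limma adjusted p = 0.00389). It shares 37.4% of its 50-base windows with Slc10a4, a vesicle protein gene, which had 17.2 and 11.3 in KO-labelled, against 8.86 and 2.98 in WT-labelled libraries, and was not called, so the pair's separate values are uncertain. Slc10a7 (Entrez 76775, chr8:78509323-78734012), the Slc10a gene with the highest mean count, had 1158 and 1093 in KO-labelled, against 900 and 819 in WT-labelled libraries (log2 difference 0.39, SE 0.11, limma adjusted p = 0.0196). That small rise was lost without WT replicate 2 (limma adjusted p = 0.0857), KO replicate 1 (0.109) or KO replicate 2 (0.0513). Slc22a23 (Entrez 73102, chr13:34179158-34345275), the Slc22a gene with the highest mean count, had 2042 and 1980 in KO-labelled, against 2520 and 4294 in WT-labelled libraries (log2 difference -0.71, SE 0.22, limma adjusted p = 0.0322). WT replicate 2 stood above the rest, and the call was lost without KO replicate 1 (limma adjusted p = 0.055) or KO replicate 2 (0.0608). Slc22a17, described as a receptor for lipocalin-2 in the collecting duct, had 1732 and 1408 in KO-labelled, against 2180 and 2673 in WT-labelled libraries (log2 difference -0.63, SE 0.14, limma adjusted p = 0.00851), and its ligand gene Lcn2 had 37893 and 24247 in KO-labelled, against 481 and 599 in WT-labelled libraries (log2 difference 5.82, SE 0.21, limma adjusted p = 6.36e-06). Slc22a18 had 723 and 933 in KO-labelled, against 1155 and 1395 in WT-labelled libraries, and Slc10a5 had 176 and 340 in KO-labelled, against 529 and 414 in WT-labelled libraries. Both were called lower, Slc22a18 not without WT replicate 2 (limma adjusted p = 0.0823) or KO replicate 1 (0.0606) and Slc10a5 not without WT replicate 1 (0.185), WT replicate 2 (0.074) or KO replicate 1 (0.131). Slc10a3 and Slc22a14 had overlapping groups, with Slc10a3 at 619 and 610 in KO-labelled, against 592 and 646 in WT-labelled libraries, and Slc22a14 at 13.2 ± 2.62 for KO-labelled and 15.3 ± 11.8 for WT-labelled (SD, n = 2 each).

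The ABC exporters of the cell surface moved in both directions, with 4 of 10 higher and 5 lower. Abcb1a (Entrez 18671, chr5:8567091-8748575), 1 of the genes for the multidrug exporter P-glycoprotein in rodents, had normalized counts of 381 and 350 in KO-labelled, against 86.7 and 81.5 in WT-labelled libraries. The groups were tight and far apart, with means of 365 ± 22.1 for KO-labelled and 84.1 ± 3.65 for WT-labelled (SD, n = 2 each), a 4.34-fold rise (log2 difference 2.10, SE 0.18, limma adjusted p = 0.000142). Its neighbours on chromosome 5 rose as well. Abcb1b, the other P-glycoprotein gene, had 176 and 187 in KO-labelled, against 91.6 and 117 in WT-labelled libraries, and Abcb4, the phosphatidylcholine exporter, had 41.8 and 30.1 in KO-labelled, against 11.8 and 16.9 in WT-labelled libraries. Abcb1a and Abcb1b share 17.6% and 11.6% of their 50-base windows with other genes, mainly each other. Abcc4, an exporter of cyclic nucleotides, prostaglandins and urate, had 3904 and 3254 in KO-labelled, against 2522 and 3051 in WT-labelled libraries, and just passed the threshold (log2 difference 0.36, SE 0.13, limma adjusted p = 0.0477). Abcb1a kept its call with every library left out in turn. Without KO replicate 1 the other 3 lost theirs, with limma adjusted p of 0.0551 for Abcb1b, 0.151 for Abcb4 and 0.238 for Abcc4. Without WT replicate 1 they lost it too, at 0.0915, 0.119 and 0.223 in the same order, and Abcb1b also did without KO replicate 2 (limma adjusted p = 0.0747).

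Abcc2 (Entrez 12780, chr19:43782308-43838332), the apical exporter of glucuronide and glutathione conjugates, was the cell-surface exporter with the largest fall. It had normalized counts of 136 and 208 in KO-labelled, against 438 and 566 in WT-labelled libraries, 2.91-fold lower by group mean (log2 difference -1.56, SE 0.24, limma adjusted p = 0.00186). Abcc5 (Entrez 27416, chr16:20331303-20426428), an exporter of cyclic nucleotides and the Abcc gene with the highest mean count, had 3057 and 3029 in KO-labelled, against 5739 and 5515 in WT-labelled libraries (log2 difference -0.89, SE 0.074, limma adjusted p = 0.000126). Replicates agreed closely in both groups. The exporters Abcc1 with 2778 and 2531 in KO-labelled, against 3961 and 3841 in WT-labelled libraries, Abcc10 with 532 and 481 in KO-labelled, against 839 and 1025 in WT-labelled libraries, and Abcc6, which mediates ATP release in liver, with 45.0 and 39.6 in KO-labelled, against 78.8 and 91.4 in WT-labelled libraries were also called lower. The call of Abcc6 was lost without WT replicate 1 (limma adjusted p = 0.0526), WT replicate 2 (0.0963) or KO replicate 2 (0.0664). Abcc3, a basolateral exporter of conjugates, had 2866 and 3036 in KO-labelled, against 2662 and 1762 in WT-labelled libraries, and was not called. It was called higher without WT replicate 1 (limma adjusted p = 0.0035) and with a replicate block (0.0488).

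Among the ABC transporters of organelles, 4 of 5 were lower, all by less than 1 on the log2 scale. Abcb8, of the inner mitochondrial membrane, had normalized counts of 1428 and 1450 in KO-labelled, against 2509 and 2545 in WT-labelled libraries (log2 difference -0.81, SE 0.081, limma adjusted p = 0.000272). Abcb10, which acts in haem synthesis, had 2021 and 1942 in KO-labelled, against 2350 and 2423 in WT-labelled libraries, a difference called with all libraries but not when any 1 of them was left out, where the limma adjusted p lay between 0.0641 and 0.149. Abcb9, the lysosomal peptide transporter, had 211 and 199 in KO-labelled, against 304 and 338 in WT-labelled libraries, and was not called without WT replicate 2 (limma adjusted p = 0.0816) or KO replicate 2 (0.0596). Abcb6, a porphyrin transporter, had 1284 and 1205 in KO-labelled, against 1367 and 1416 in WT-labelled libraries, and was not called. Its values are uncertain because of the shared windows given above.

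Both sulfonylurea receptor genes, whose products are channel subunits and not transporters in the strict sense, were lower. Abcc9 (Entrez 20928, chr6:142587862-142702766), which with Kcnj8 forms the ATP-sensitive potassium channel of vascular smooth muscle and pericytes, had normalized counts of 985 and 756 in KO-labelled, against 2506 and 2266 in WT-labelled libraries. The groups did not come near each other (log2 difference -1.47, SE 0.14, limma adjusted p = 0.000219). Kcnj8 had 682 and 782 in KO-labelled, against 1010 and 1123 in WT-labelled libraries (log2 difference -0.54, SE 0.12, limma adjusted p = 0.00874). Abcc8, the receptor of pancreatic beta cells, had 8.58 and 11.3 in KO-labelled, against 45.3 and 20.9 in WT-labelled libraries, and was lower at low level, with 20 recovered reads in KO-labelled and 67 in WT-labelled libraries. It was not called without WT replicate 1 (limma adjusted p = 0.177) or KO replicate 1 (0.0939). Of 8 pericyte and smooth muscle markers, 3 were higher and 2, Kcnj8 and Rgs5, were lower, with a median of 0.11 and sums of 36681 and 42261 in KO-labelled, against 23260 and 25547 in WT-labelled libraries. The higher KO-labelled sums came with 1 gene, Acta2, which had 15956 and 21598 in KO-labelled, against 2763 and 5174 in WT-labelled libraries.

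Levels of different genes were compared per length, as normalized counts per kb of exon. Slco1a6 had the highest such level of all 59 genes with a length, at 622 ± 253 in KO-labelled and 1971 ± 1081 in WT-labelled libraries (SD, n = 2 each). In KO-labelled libraries several genes lay within its spread, among them Slco3a1 at 607 ± 54.6, Slc47a1 at 576 ± 167 and Abcc4 at 560 ± 71.9 per kb. In the Slc22a family, Slc22a5 and Slc22a12 led in both groups, at 533 ± 58.9 and 530 ± 201 per kb in the KO-labelled libraries and 924 ± 34.4 and 968 ± 0.0729 per kb in the WT-labelled libraries. The order within that pair changed between the groups, by less than the spread of Slc22a12 in the KO-labelled libraries. In the Abcc family the leading gene changed. Abcc4 led in the KO-labelled libraries at 560 ± 71.9 per kb. There Abcc3 at 518 ± 21.2 lay within the spread of Abcc4, and Abcc5 stood at 285 ± 1.85. Abcc5 led in the WT-labelled libraries at 527 ± 14.9 per kb, with Abcc4 at 436 ± 58.4 and Abcc3 at 388 ± 112. Slc10a3 led its family in both groups, at 304 ± 2.93 per kb for KO-labelled and 306 ± 18.9 per kb for WT-labelled, whereas Slc10a1 stood at rank 6 with 44.5 ± 23.7 per kb in KO-labelled and at rank 2 with 184 ± 89.8 per kb in WT-labelled libraries.

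Genes that work with these transporters but lie outside the families gave 2 higher and 21 lower of 41 tested. The number lower was 13 without WT replicate 1. Among scaffolds, Pdzk1, which anchors apical carriers in the brush border, had 4668 and 7761 in KO-labelled, against 12206 and 11972 in WT-labelled libraries (log2 difference -1.01, SE 0.21, limma adjusted p = 0.0067), and Slc9a3r2 had 3133 and 2989 in KO-labelled, against 8420 and 8337 in WT-labelled libraries (log2 difference -1.45, SE 0.074, limma adjusted p = 1.88e-05), while Slc9a3r1 had overlapping groups. Slc13a3, the basolateral dicarboxylate carrier that supplies the counter-ion of organic anion uptake, had 428 and 968 in KO-labelled, against 1876 and 2767 in WT-labelled libraries (log2 difference -1.82, SE 0.36, limma adjusted p = 0.00539). Other carriers that fell by at least 1 on the log2 scale were the lactate carrier Slc5a12 with 159 and 597 in KO-labelled, against 1659 and 3456 in WT-labelled libraries (limma adjusted p = 0.00575), the anion carrier Slc17a4 with 30.0 and 31.1 in KO-labelled, against 121 and 102 in WT-labelled libraries (adjusted p = 0.00141), the nucleoside carrier Slc29a2 with 340 and 249 in KO-labelled, against 621 and 658 in WT-labelled libraries (adjusted p = 0.00195), and Slc51a, given above. Of 14 regulators, 8 were lower and 1 was higher. Ahr, the aryl hydrocarbon receptor, was the regulator that rose, with 3654 and 3578 in KO-labelled, against 1897 and 1651 in WT-labelled libraries (log2 difference 1.03, SE 0.094, limma adjusted p = 0.000181). Ppara, the fatty acid receptor, fell, with 677 and 775 in KO-labelled, against 1503 and 1542 in WT-labelled libraries (log2 difference -1.07, SE 0.11, limma adjusted p = 0.00029). Hnf4a, which encodes a factor that drives proximal tubule and liver genes, had 2482 and 4344 in KO-labelled, against 5583 and 5699 in WT-labelled libraries (log2 difference -0.78, SE 0.23, limma adjusted p = 0.026), and its call was lost without WT replicate 1 (limma adjusted p = 0.0957) or WT replicate 2 (0.102). Nfe2l2, the regulator of antioxidant genes, had 10687 and 9797 in KO-labelled, against 9039 and 8681 in WT-labelled libraries, and was not called (log2 difference 0.21, SE 0.081, limma adjusted p = 0.0669).

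Promoters of the transporters were searched for the letters of sites known for 3 kinds of regulator, on both strands, in the RefSeq window of 250 bases before and 50 after each start (GRCm38.p6). A window was at hand for 44 of the 60 genes. The HNF4 letters CAAAGTCCA were in none of the 44, against 0.555% of 27025 genes, and the antioxidant response element TGACNNNGC was in 6 of 44, or 13.6%, against 3781 of 27025 genes. The xenobiotic response letters TTGCGTG were in 1, that of Slc10a7, against 1.35%. The 250 bases before the start of Slc22a27 are shown because it fell farthest on the log2 scale and holds the antioxidant letters. The window is read from the minus strand, at chr19:7966028-7966277, before a RefSeq start that lies inside the outer limits of the gene given above, and capitals mark the 2 matches.
Slc22a27: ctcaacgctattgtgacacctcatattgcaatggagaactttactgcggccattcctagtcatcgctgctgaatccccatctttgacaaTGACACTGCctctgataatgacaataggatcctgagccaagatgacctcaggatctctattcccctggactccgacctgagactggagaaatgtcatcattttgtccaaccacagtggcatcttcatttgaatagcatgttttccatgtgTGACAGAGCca
The matches start 161 and 11 bases before the start site. A match of letters is a description and not a site.

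Markers of the cell types in the sample differed widely between the groups, and each transporter value is a sum over those cells. Of the 13 macrophage markers all were higher, with a median log2 difference of 2.45 and sums of 63314 and 62511 in KO-labelled, against 13508 and 12761 in WT-labelled libraries. Fibroblast markers gave 4 higher and 1 lower of 7, with a median of 1.00 and sums of 448575 and 518151 in KO-labelled, against 181533 and 188647 in WT-labelled libraries. The largest part of those sums was Col3a1, with 261051 and 308699 in KO-labelled, against 93786 and 92680 in WT-labelled libraries. Col1a1, Col1a2 and Lum were also higher, Tcf21 was lower, and Dcn and Pdgfra were not called. The 12 endothelial markers were all lower, with a median of -1.28 and sums of 38207 and 36434 in KO-labelled, against 103028 and 104948 in WT-labelled libraries. Of the medullary segments, the thick ascending limb gave 12 lower and 1 higher of 14 with a median of -2.61 and sums of 271434 and 190966 in KO-labelled, against 548928 and 575260 in WT-labelled libraries. Most of those KO-labelled sums was Umod, not called, with 203680 and 138033 in KO-labelled, against 136828 and 143709 in WT-labelled libraries. The thin limb gave 7 lower and 1 higher of 9 with a median of -1.94, principal cells 7 lower of 10 with a median of -1.38, and intercalated cells 8 lower of 9 with a median of -2.06. Urothelial markers were lower in 6 of 6, with a median of -2.33. Podocyte markers gave 1 higher and 2 lower of 5, and erythroid markers 1 higher and 3 lower of 4. No marker tested was at 0 in all libraries, and the part of these cell types in the transporter results was not tested.

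**Figure D5:**
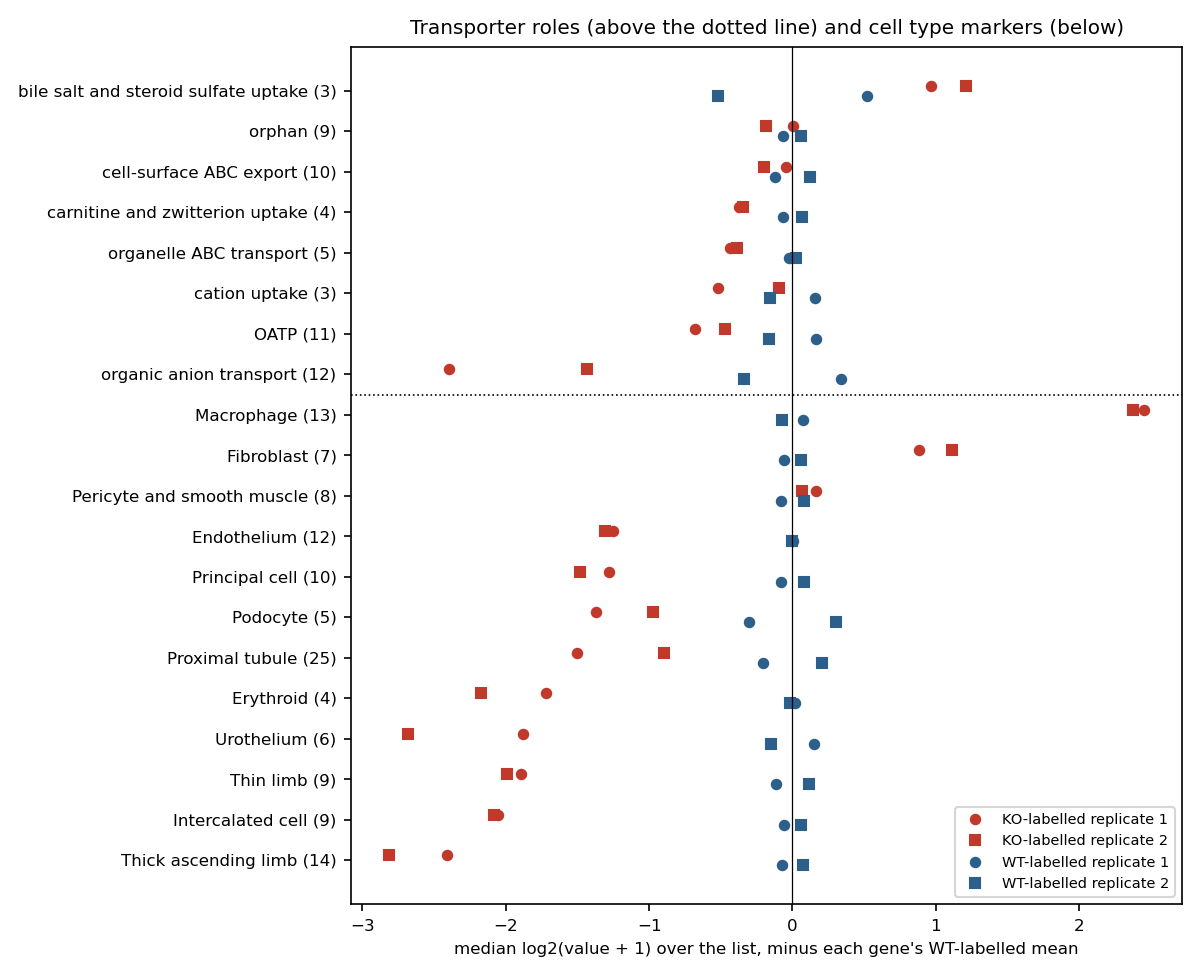
Median over each list of log2(value + 1) minus each gene's WT-labelled mean (horizontal axis), 1 point per library, for the transporter roles with at least 3 genes above the dotted line and the cell type markers below it, with the number of genes in parentheses. Organic anion carriers lie at -2.40 in KO replicate 1 and -1.43 in KO replicate 2, and proximal tubule markers at -1.51 and -0.90 in the same libraries.

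The rule's mean of 10 left Slc10a4 just inside at 10.1 and Slc22a14 at 14.2, and Slco1b2 just outside at 5.43 and Abcb11 at 2.22. Of the 11 matching genes below the mean, 4 were listed at 0 in every library, namely Slc22a16, Slc22a20, Slco6c1 and Slco6d1. Abcb11, the canalicular bile salt exporter of hepatocytes, was listed at 0 in both KO-labelled libraries, against 5.91 and 2.98 in the WT-labelled libraries. The remaining ones were Abcb5, Abcc12, Slc22a26, Slc47a2, Slco1b2 and Slco6b1.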

How the data were processed

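Total RNA of the kidney medulla was sequenced by mRNA-seq, per the labels' protocols. The deposited signal values are read counts per gene that the authors scaled by a size factor for each library, as the values themselves show, being whole multiples of a step (1.07 and 0.942 for KO-labelled, 0.985 and 0.994 for WT-labelled libraries), with 100% whole within 0.001. In WT replicate 2 the step is close to 1, but only 0.0938% of its values were whole before division. The submitters' processing notes name the tools DESeq2 2.11.40.7, HISAT2 2.2.1, featureCounts 2.0.1 and fastp 0.20.1 and, as builds, mm10 and GRCm38. Annotation, strandedness and handling of multimapped reads were not given in the sources used here, so counts of near-identical, overlapping or antisense genes are uncertain. Of 27179 Entrez IDs, 25275 had a symbol in the RefSeq table of GRCm38.p6, which also gave coordinates. The 1904 others held 0.325% to 0.339% of the reads.

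The members and lists were chosen with earlier results of these data known. Tests with limma (two-sided, version 3.58.1, R 4.3.3, variance trend) were run on log2(value + 1) for 16253 genes whose mean was at least 10. They were adjusted by Benjamini-Hochberg at a threshold of 0.05 and tested on simulated data. Low genes change more than that scale shows, and folds are ratios of group means. Degrees of freedom were 2 for each gene and 6.96 after pooling across genes. Replicates differed beyond counting noise (chi-square per degree of freedom 16.9 for KO-labelled and 22.3 for WT-labelled), so none was a copy. Values in every library were given for called members with an absolute log2 difference of at least 1 and a mean of at least 50, and for the member with the highest mean in each family. Pairs of closest relatives called in opposite directions were to be added, and were found by blastn on the longest GENCODE transcripts, since proteins were not used here. Of related genes, those past the same limits were to be named. Other genes given with values were chosen after their values were seen. The alternatives changed the pseudocount, the filter, the scaling or the variance model, used edgeR 4.0.16 or DESeq2 1.42.0 on recovered reads, added a replicate block, or dropped 1 library, whose remaining partner is then assumed to vary like the other group. A few genes that this rule or the lists hold are not reported here by name, but stay in the fits and counts. Intervals and floors cover counting error only.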

Additional observations from a re-analysis of the deposited data

How the results depend on the processing

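Of the 43 transporter genes called, 19 kept their call under each of the 17 alternatives that tested them, and 8 of the 17 not called were called under none. Slc10a3, Slc22a7, Slc22a14, Slc22a15, Slc22a21 and Slc22a22, none of them called, changed sign under at least 1 alternative. Over the 23 genes that the naming rule chose, none changed sign, 349 of 391 values stayed on their side of the threshold with the same direction, 39 lost the call and 3 gained it. With no variance trend, 18 transporters were called lower in place of 32, and with a robust trend 23. Leaving out 1 library at a time gave 7 to 10 called higher, 20 to 32 called lower, and a median log2 difference from -0.74 to -0.45. The related genes outside the families gave 13 to 24 lower and 2 higher. On the recovered reads, edgeR called 10 higher and 32 lower and DESeq2 10 higher and 28 lower. DESeq2 did not call Slc22a6 (adjusted p = 0.0933), Slc22a19 (0.0679), Slc22a23 (0.0790) or Slco1c1 (0.0788), each called by limma. Nor did it call Abcc6 (adjusted p = 0.0507), Abcc8 (0.0756), Abcb4 (0.123) or the related gene Hnf4a (0.117). It called Slc22a2 and Slc47a1 lower, as given above. The deviations of same-numbered libraries were all but uncorrelated across genes (r = -0.056). With 1 such contrast per group, this value cannot show whether the libraries were paired. With a replicate block, 10 transporters were higher and 33 lower, and 2 related genes were higher and 22 lower. The causes of these changes were not tested. Shares of all genes called were set beside the counts only for the main limma fit, edgeR and DESeq2. Under the other alternatives the counts do not tell whether transporters or all genes lost calls. With 2 libraries a group, precision is limited by the spread between animals, which exceeded counting noise at 36482238 to 40784436 reads per library.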
